A study of Mus musculus with 24 samples.

Results

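Genes that encode the proteins of mouse milk other than the caseins were followed across pregnancy and lactation in wild-type and mutant mice. The list held 10 names: Wap, Lalba, Glycam1, Ltf, Lao1, Spp1, Muc1, Pthlh, Wfdc18 and Expi. A name was kept where a probe set of the array carried it as its only gene symbol in the platform annotation. This gave 7 genes of the 22180 named in the table: Wap, Lalba, Glycam1, Ltf, Lao1, Muc1 and Wfdc18, each with 1 probe set, and all 7 were among the 15234 genes tested. Expi is an older symbol of Wfdc18 in RefSeq and names the same gene. Spp1, which encodes osteopontin, and Pthlh, which encodes parathyroid hormone-related protein, were not analysed here.

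The study held 24 single-colour arrays of mouse RNA, 12 wild type and 12 mutant, in a mixed background of FVB (80%), 129SVEV (10%) and Black Swiss (10%) that all groups shared. Its title concerns BRCA1, replication forks and oestrogen signalling during pregnancy. The 8 groups had 3 arrays each, 1 group per genotype and stage. The stage codes were V for virgin, dp12 and dp18 for earlier and later pregnancy, and Lac10 for lactation. This reading is the usual one, although the design text gives the numbers as months. The labels name neither the mutated allele, a promoter or Cre that restricts it, the age of the animals nor the tissue, and a treatment field about RNA bound to PAB-1 does not match the Trizol total RNA named beside it. Titles give most arrays a weight in grams and the mutants differing numbers, which points to separate animals, although no label states it. The p-values rest on array-to-array spread, which may in part be technical. Values are log2 expression, from 1.98 to 13.5 over the table, with array medians of 5.31 to 5.62. Changes are log2 differences with the standard error (SE) of a limma fit over all 24 arrays, called at a Benjamini-Hochberg adjusted p under 0.05.

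Milk serum, or whey, is what remains when casein micelles and fat are removed. Its proteins are made by luminal alveolar cells of the mammary gland, which differentiate during pregnancy under prolactin, acting through the receptor, Jak2 and the transcription factor Stat5, together with glucocorticoid and the epithelial factor Elf5. Whey proteins feed the young, and some of them also regulate lactose synthesis or limit bacterial growth in the gland.

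Some arrays stood apart. In 3 arrays the median correlation with the rest was under 0.9: wild-type dp18 replicate 1, mutant dp18 replicate 1 and mutant Lac10 replicate 2. Next lowest were the 3 wild-type virgin arrays, at 0.907 to 0.920, which are the baseline of each wild-type change from virgin. Among them, replicate 2 had the highest means of the series for skeletal muscle (7.07), macrophage (8.45) and lymph node markers (7.37). The late casein gene Csn1s2b stood at 6.47 in the array labelled wild-type Lac10 replicate 1, against 11.47 and 11.24 in the other arrays of that group. In the array labelled mutant dp18 replicate 2 it stood at 10.37, against 6.30 and 5.93. All 11 listed luminal epithelial markers were measured. Their mean lay above the array median in every array, and it ran from 9.78 to 9.96 over the 6 dp12 arrays and down to 7.19 in mutant dp18 replicate 2, 7.49 in mutant Lac10 replicate 3 and 6.57 in mutant Lac10 replicate 2. In bulk RNA, fewer cells of a type and less RNA per cell cannot be told apart.

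The upstream sequences of the genes that rose together in pregnancy, Wap, Lao1 and Glycam1, and of Wfdc18, which varied least, are shown for the letters that milk gene regulators are known to bind. They come from RefSeq and end before the first annotated base of the gene. Searched on both strands were TTCNNNGAA, the palindrome bound by Stat5, and TTGGC, a short site of nuclear factor I, with no overlap between the matches. Matches are in capitals, and GCCAA is TTGGC on the other strand.

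Wap (GRCm38.p6, chr11:6638655-6638899, minus strand): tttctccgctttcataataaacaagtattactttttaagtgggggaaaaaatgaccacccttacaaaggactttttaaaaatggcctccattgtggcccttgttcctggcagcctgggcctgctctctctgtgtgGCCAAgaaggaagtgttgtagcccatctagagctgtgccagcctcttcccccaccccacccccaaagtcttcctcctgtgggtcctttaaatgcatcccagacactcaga
Glycam1 (GRCm38.p6, chr15:103565082-103565331, minus strand): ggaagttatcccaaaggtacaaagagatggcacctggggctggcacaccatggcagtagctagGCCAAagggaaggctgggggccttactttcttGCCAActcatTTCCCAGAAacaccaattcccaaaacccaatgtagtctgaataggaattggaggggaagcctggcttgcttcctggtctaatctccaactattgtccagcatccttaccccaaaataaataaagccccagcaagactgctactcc
Lao1 (GRCm38.p6, chr4:118961717-118961966, plus strand): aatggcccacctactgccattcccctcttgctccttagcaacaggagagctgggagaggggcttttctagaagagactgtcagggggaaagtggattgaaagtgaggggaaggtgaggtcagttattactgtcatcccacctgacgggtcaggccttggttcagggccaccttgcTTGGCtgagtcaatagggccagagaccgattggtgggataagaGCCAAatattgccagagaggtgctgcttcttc
Wfdc18 (GRCm38.p6, chr11:83708754-83709003, plus strand): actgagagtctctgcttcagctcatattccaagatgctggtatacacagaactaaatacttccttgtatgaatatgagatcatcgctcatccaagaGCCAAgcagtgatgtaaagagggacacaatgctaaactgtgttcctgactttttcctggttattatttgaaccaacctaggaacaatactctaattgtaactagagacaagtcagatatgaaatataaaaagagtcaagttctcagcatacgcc

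For Lalba the window lies inside the annotated gene, so only the letters around a match are shown.

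Lalba (GRCm38.p6, chr15:98482789-98482813, minus strand): ggtttctattTTGGCataagcatct

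The palindrome TTCNNNGAA was found in the 250 bases before the start of 1 of the 7 genes, Glycam1, 145 bases upstream, and in 7.02% of 32851 windows of that length in the RefSeq table. TTGGC was found for 5 of the 7, namely Wap, Lalba, Glycam1, Lao1 and Wfdc18, and in 41.5% of windows. Distances are counted from the start site in the RefSeq table, which for Wap lies a few bases inside the annotated gene, past the end of the printed sequence. The matches in Wap and Wfdc18 lie 115 and 154 bases upstream and those in Lao1 75 and 32 bases upstream. These are matches of letters, not binding sites, and the windows of Ltf and Muc1 held neither motif.

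**Figure D1:**
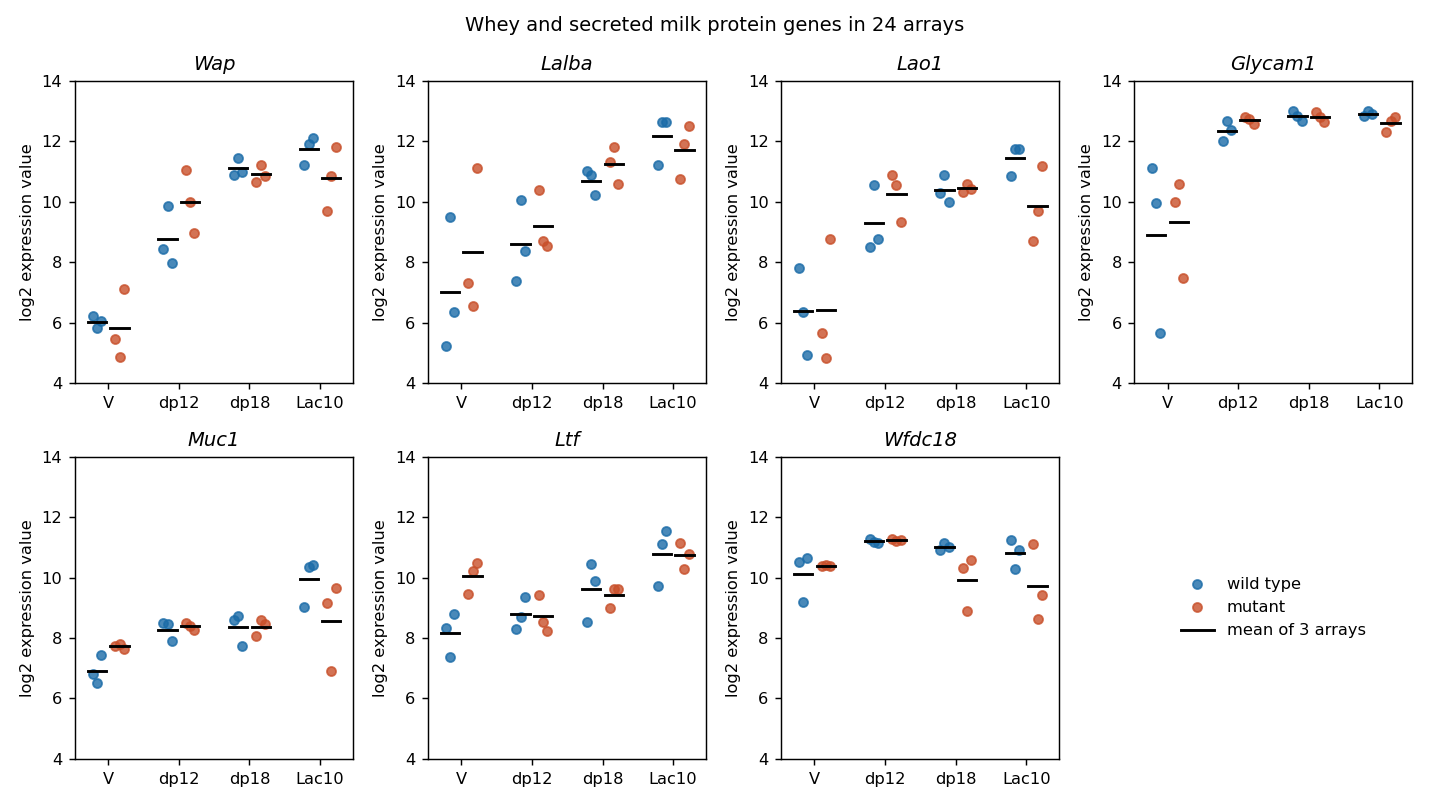
Log2 expression value (vertical axis) of the 7 genes in each of 24 arrays by stage (horizontal axis), wild type in blue and mutant in orange, with a black bar for the mean of 3 arrays. In wild type the means of Wap, Lalba and Lao1 climb over the stages. In both genotypes Glycam1 lies above 12 in every array from dp12 on, and Wfdc18 spans the least.

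Wap encodes whey acidic protein, the main whey protein of rodent milk, with the disulphide-rich domain shared by the WFDC family of protease inhibitors. Among the 7 genes it had the clearest course. Its level in wild type was 6.21, 5.83 and 6.06 in virgins, 8.45, 9.86 and 7.98 at dp12, 10.91, 11.46 and 10.99 at dp18, and 11.23, 11.93 and 12.12 at Lac10. Virgins lay below every later array, dp12 lay below dp18, and dp18 overlapped Lac10. The mutant arrays read 5.45, 4.88 and 7.11 in virgins, 11.05, 10.01 and 8.98 at dp12, 10.65, 11.24 and 10.86 at dp18, and 9.69, 10.87 and 11.83 at Lac10. Here too the virgins lay below every later array, whereas the 3 later stages overlapped. Between virgin and dp12 wild-type Wap rose by 2.73 (SE 0.58, a 6.62-fold change, adjusted p = 0.0147, limma), and mutant Wap rose by 4.20 (SE 0.58, 18.4-fold, adjusted p = 2.81e-04). From virgin to Lac10 the rise was 52.9-fold in wild type, or 5.72 (adjusted p = 2.90e-05), and 31.7-fold in mutants, or 4.98 (adjusted p = 9.54e-05).

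With 1 array left out, wild-type Wap at dp12 stayed past the threshold without virgin replicate 1 or dp12 replicate 3 and missed it without virgin replicate 2, virgin replicate 3, dp12 replicate 1 or dp12 replicate 2, with adjusted p = 0.0656, 0.0631, 0.0623 and 0.0897 and changes of 2.63, 2.74, 2.88 and 2.18. In those fits 0, 18, 4 and 146 of all genes were called in this step, against 983 with all arrays. In mutants the change of Wap stayed between 3.68 and 4.85 and past the threshold whichever array was left out.

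Lalba encodes alpha-lactalbumin, the subunit that turns the galactosyltransferase B4galt1 into lactose synthase. Its virgin arrays were spread more widely than those of any later group. Its level in wild-type virgins was 5.24, 9.49 and 6.34, and in mutant virgins 7.31, 6.55 and 11.12. At dp12 it was 7.39, 10.06 and 8.39 in wild type and 10.39, 8.70 and 8.54 in mutants, so both dp12 groups overlapped their virgins. At dp18 it was 11.02, 10.88 and 10.22 in wild type and 11.34, 11.82 and 10.60 in mutants, and at Lac10 11.22, 12.65 and 12.66 and 10.75, 11.91 and 12.51. All dp18 arrays lay above the dp12 arrays of their genotype, a difference of 2.09 (SE 1.03, adjusted p = 0.484) in wild type and 2.04 (SE 1.03, adjusted p = 0.376) in mutants that did not pass. Lalba rose from virgin to Lac10 in wild type by 5.15 (SE 1.03, 35.5-fold, adjusted p = 0.00495). In mutants the same difference was 3.39 (SE 1.03, adjusted p = 0.0686), which missed the threshold, and it passed without mutant virgin replicate 3, at 4.79 (adjusted p = 0.0147), and without mutant Lac10 replicate 1, at 3.88 (adjusted p = 0.035).

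Lao1 encodes an L-amino acid oxidase that releases hydrogen peroxide in milk. It followed Wap. In wild type it was 7.82, 6.37 and 4.93 in virgins, 8.51, 10.57 and 8.78 at dp12, 10.30, 10.88 and 9.99 at dp18 and 10.85, 11.73 and 11.74 at Lac10. The mutant arrays read 5.66, 4.84 and 8.78 in virgins, 10.88, 10.55 and 9.35 at dp12, 10.33, 10.59 and 10.44 at dp18, and 8.72, 9.70 and 11.19 at Lac10. Mutant virgin replicate 3, the array highest in Wap and Lalba in its group, was also the highest in Lao1 and just overlapped Lac10 replicate 1. Up to dp12 wild-type Lao1 rose by 2.91 (SE 0.83, 7.52-fold, adjusted p = 0.0438), and mutant Lao1 rose by 3.84 (SE 0.83, 14.3-fold, adjusted p = 0.00938). Up to Lac10 the rise was 5.06 in wild type (33.5-fold, adjusted p = 0.00128) and 3.44 in mutants (10.9-fold, adjusted p = 0.0337). The wild-type dp12 call was kept only when virgin replicate 1 was left out, and without any other array of the comparison the adjusted p ran from 0.0841 to 0.173. The mutant dp12 call was lost without virgin replicate 2 or dp12 replicate 2 (adjusted p = 0.0934 and 0.0526). The mutant Lac10 call was kept without virgin replicate 3 or Lac10 replicate 1 and lost without any of the other 4 arrays, with adjusted p from 0.0601 to 0.178.

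Glycam1 encodes a small sialomucin secreted into milk, which is also made by the high endothelial venules of lymph nodes, where it carries ligands of L-selectin. In virgins its level was 11.13, 9.97 and 5.65 in wild type and 9.99, 10.59 and 7.48 in mutants. From dp12 on, all 18 arrays lay between 12.03 and 13.01, against a highest value of 13.5 in the table. Virgins of both genotypes lay below every later array of their genotype. The rise of Glycam1 up to dp12 was 3.44 in wild type (SE 0.87, 10.9-fold, adjusted p = 0.0291) and 3.36 in mutants (SE 0.87, 10.3-fold, adjusted p = 0.0297). Up to Lac10 it was 3.99 (adjusted p = 0.00852) and 3.25 (adjusted p = 0.0481). Its lowest arrays decide the size. Without wild-type virgin replicate 3 the changes to dp12 and Lac10 were 1.81 (adjusted p = 0.105) and 2.36 (adjusted p = 0.0286), and without mutant virgin replicate 3 they were 2.43 (adjusted p = 0.177) and 2.32 (adjusted p = 0.165). The wild-type dp12 call was kept only without virgin replicate 1. The mutant dp12 call was also lost without any dp12 array (adjusted p from 0.0872 to 0.108). The mutant Lac10 call was kept only without Lac10 replicate 1.

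Lymph node markers were measured beside Glycam1. Of 15 listed lymph node markers 12 were measured. Their mean level was highest in wild-type virgin replicate 2 at 7.37 and otherwise between 5.46 and 5.63 in that group, while Glycam1 was highest in replicate 1. In mutant virgins the mean was 6.03, 7.02 and 5.25. It ran from 5.12 to 5.92 in wild type and from 5.37 to 5.90 in mutants at dp12, where every Glycam1 value lay above those of the virgins. In both genotypes the virgin array lowest in Glycam1, replicate 3, was also the lowest in these markers. Chst4 and Fut7, which encode enzymes of L-selectin ligand synthesis in these venules, lay between 4.03 and 5.26 in every array, below all array medians. They were therefore not among the 10 lymph node markers that were tested. The part of lymph node tissue in the Glycam1 values was not tested.

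Muc1 encodes a transmembrane mucin of the apical surface that is carried into the milk fat globule membrane. In wild type it was 6.80, 6.50 and 7.43 in virgins, 8.49, 8.46 and 7.89 at dp12, 8.59, 8.72 and 7.75 at dp18, and 9.04, 10.37 and 10.41 at Lac10. The virgins lay below, and the Lac10 arrays above, every other wild-type array. Muc1 rose from virgin to Lac10 in wild type by 3.03 (SE 0.49, 8.17-fold, adjusted p = 0.00123). The mutant arrays read 7.74, 7.79 and 7.63 in virgins, 8.51, 8.41 and 8.26 at dp12, 8.07, 8.59 and 8.47 at dp18, and 9.15, 6.91 and 9.66 at Lac10. The low Lac10 value is that of replicate 2, the array of lowest correlation. The mutant change from virgin to Lac10 was 0.85 (SE 0.49, adjusted p = 0.281), and it was 1.68 (adjusted p = 0.047) without that replicate. Between virgin and dp12 the groups did not overlap in either genotype, with differences of 1.37 (adjusted p = 0.0818) and 0.67 (adjusted p = 0.631).

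Ltf encodes lactoferrin, the iron-binding protein of milk, which is also stored in neutrophil granules. In mutants it was the single gene of the 7 with a lower mean at dp12 than in virgins. In wild type it was 8.33, 7.38 and 8.79 in virgins, 8.31, 8.69 and 9.36 at dp12, 8.53, 10.45 and 9.89 at dp18, and 9.73, 11.12 and 11.53 at Lac10. The mutant arrays read 9.47, 10.23 and 10.50 in virgins, 9.44, 8.53 and 8.23 at dp12, 9.01, 9.64 and 9.62 at dp18, and 11.16, 10.29 and 10.79 at Lac10. Mutant virgins lay above all mutant dp12 arrays, by 1.34 on average (SE 0.51, adjusted p = 0.168). Ltf rose from virgin to Lac10 in wild type by 2.63 (SE 0.51, 6.18-fold, adjusted p = 0.00418). The mutant difference was 0.68 (SE 0.51, adjusted p = 0.397).

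Of 10 neutrophil markers, all measured, Camp and Ngp, which encode proteins of the same granules as lactoferrin, lay between 4.26 and 4.90 and between 4.44 and 5.96 over all arrays. The mean level of the neutrophil markers ran from 4.79 to 5.00 in wild-type virgins, 4.82 to 4.88 in mutant virgins and 4.79 to 4.85 in wild-type Lac10. Their highest mean, 5.41, was in mutant Lac10 replicate 2, whose Ltf value was the lowest of its group. Only 4 of the 10 were high enough to be tested. From virgin to Lac10 all 4 were higher in mutants, with a median change of 0.56. In wild type 2 were higher and 2 lower, with a median of -0.09. Limma called 0 of them in either genotype, where 7.24% of all genes were called in wild type and 2.88% in mutants. At an unadjusted p under 0.05 there were 0 of the 4 in wild type and 2 in mutants, beside 3739 and 3730 of all genes. The part of neutrophils in the Ltf values was not tested.

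Wfdc18 encodes a small secreted protein of the WFDC family, known before as extracellular proteinase inhibitor. It had the smallest span of the 7 genes, 2.63 between the lowest and the highest array, and passed in none of these comparisons. In wild type it was 10.52, 9.20 and 10.66 in virgins, between 11.16 and 11.27 at dp12, between 10.91 and 11.13 at dp18, and 11.25, 10.27 and 10.92 at Lac10. The mutant arrays lay between 10.37 and 10.42 in virgins and between 11.21 and 11.26 at dp12, then 10.31, 8.90 and 10.60 at dp18 and 11.12, 8.64 and 9.43 at Lac10. All dp12 arrays lay above the virgins of their genotype, with differences of 1.07 in wild type (SE 0.49, adjusted p = 0.137) and 0.85 in mutants (SE 0.49, adjusted p = 0.452). The mutant difference from virgin to Lac10 was -0.66 (SE 0.49, adjusted p = 0.392), and it passed as lower, at -1.35 (adjusted p = 0.0462), when mutant Lac10 replicate 1 was left out. Over the alternative fits this difference ran from -1.35 to 0.38.

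Wfdc18 was low in the mutant arrays whose luminal markers were low. Mutant dp18 replicate 2 and mutant Lac10 replicates 2 and 3 had the 3 lowest luminal means of the series, 7.19, 6.57 and 7.49, and 3 of the 4 lowest Wfdc18 values. Wap in these 3 arrays was at 11.24, 10.87 and 11.83 and Lalba at 11.82, 11.91 and 12.51, each at or above the median of its own group. The mean of 9 basal and myoepithelial markers was 9.71, 8.89 and 9.68 in these 3 arrays, against 7.87 to 8.81 over the virgins. The first and the last of these were the highest of their groups, and 8.89 was the lowest of its group. In mutant Lac10 replicate 1, where the luminal mean was 9.80, Wap at 9.69, Lalba at 10.75 and Lao1 at 8.72 were the lowest of that group. The array labelled wild-type Lac10 replicate 1 had a luminal mean of 9.64, against 8.33 and 8.60, and the lowest Wap, Lalba, Lao1, Glycam1, Ltf and Muc1 of its group. Whether epithelial content took part in these values was not tested.

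**Figure D2:**
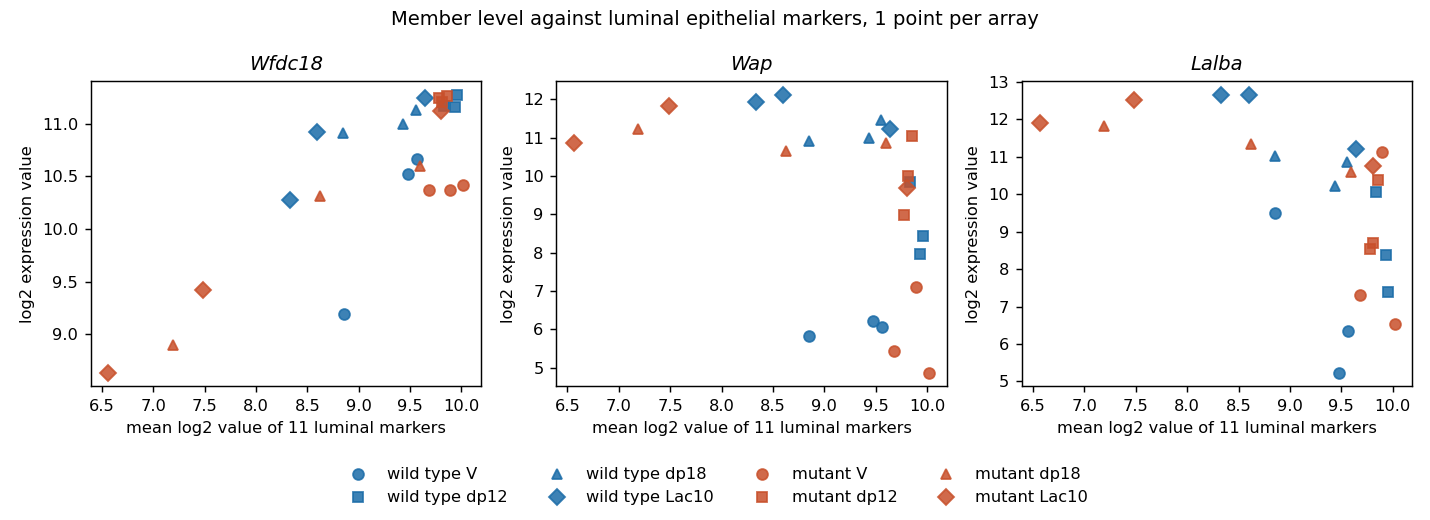
Log2 value of Wfdc18, Wap and Lalba (vertical axes) against the mean log2 value of 11 luminal epithelial markers (horizontal axis), 1 point per array, with colour for genotype and shape for stage. Wfdc18 is low in the 3 mutant arrays with the lowest luminal means, while Wap and Lalba in the same arrays lie among the pregnancy and lactation arrays.

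Counted together, the same 3 genes, Wap, Glycam1 and Lao1, rose from virgin to dp12 in each genotype, and none fell. Over all genes 6.45% passed in this step in wild type, 5.91% as higher and 0.538% as lower. In mutants 4.44% passed, 3.02% as higher and 1.42% as lower. The median change of the 7 genes was 1.59 in wild type and 0.88 in mutants, beside 0.28 and 0.01 over all genes tested. From virgin to Lac10, 6 of the 7 rose in wild type, all but Wfdc18, where 7.24% of all genes passed, 6.01% as higher and 1.23% as lower. In mutants 3 of 7 rose, Wap, Glycam1 and Lao1, where 2.88% of all genes passed, 0.282% as higher and 2.59% as lower. The medians were 3.99 in wild type and 3.25 in mutants, beside 0.15 and -0.18 over all genes. The comparisons with virgins share the virgin arrays, so their calls are not independent.

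Centring each array on a housekeeping list shifted the median of all genes by -0.51 in the wild-type and -0.39 in the mutant step to dp12, and by -0.37 and 0.27 from virgin to Lac10. With that centring 0 of the 7 genes were called in wild type at dp12, where Wap, Glycam1 and Lao1 stood at 2.22, 2.93 and 2.40 (adjusted p = 0.0684, 0.0938 and 0.118). Of the genes called, the share that was higher turned from 91.7% to 48.1% in wild type at dp12, from 83% to 48.3% in wild type at Lac10 and from 67.9% to 15.4% in mutants at dp12. In mutants at dp12 Ltf was then called as lower, at -1.73 (adjusted p = 0.0179), beside the same 3 rises. The 6 wild-type calls at Lac10 were also made with housekeeping centring.

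**Figure D3:**
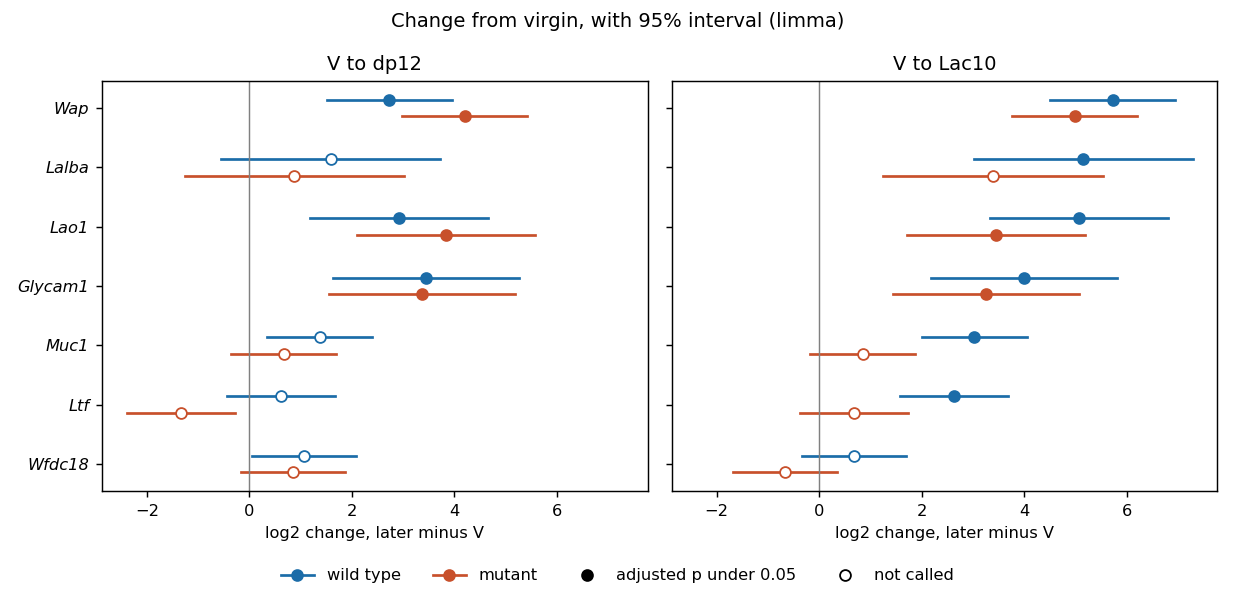
Log2 change from virgin to dp12 (left) and to Lac10 (right) for the 7 genes, wild type in blue and mutant in orange, with the 95% interval of the limma fit. Filled points passed at an adjusted p under 0.05, as 3 genes did in each genotype at dp12, 6 in wild type at Lac10 and 3 in mutants at Lac10.

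Between neighbouring later stages no member passed. From dp12 to dp18 and from dp18 to Lac10 limma called 0 of the 7 genes in either genotype, as it called 0% of all genes. At an unadjusted p under 0.05 there were 1 and 2 of the 7 in these steps in wild type and 1 and 1 in mutants, beside 1476, 1219, 2082 and 449 of all genes. The largest difference of each step in wild type was that of Wap from dp12 to dp18, 2.36 (SE 0.58, adjusted p = 0.484), and that of Muc1 from dp18 to Lac10, 1.59 (SE 0.49, adjusted p = 0.413). The order of the stage means was V, dp12, dp18, Lac10 for Wap, Lalba, Lao1, Glycam1, Muc1 and Ltf in wild type. In mutants this order held for Lalba alone. No step between neighbouring stages after virgin passed after adjustment over all genes. In wild type the 95% interval, which is not adjusted over genes, was 1.14 to 3.58 for Wap from dp12 to dp18. For Muc1 from dp18 to Lac10 it was 0.56 to 2.62.

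The genotype comparison asked whether these genes were expressed differently in mutants at a given stage. No member passed at any stage in limma, where 0.0263%, 0%, 0% and 0.236% of all genes were called at V, dp12, dp18 and Lac10. At an unadjusted p under 0.05 the numbers were 1, 1, 1 and 2 of the 7 genes, beside 2403, 184, 100 and 2676 of all genes. In virgins 6 of the 7 genes had a higher mean in mutants, with a median difference of 0.43 beside 0.20 over all genes. Ltf stood furthest apart at 1.90 (SE 0.51, 3.74-fold, adjusted p = 0.196), with all 3 mutant arrays above all 3 wild-type arrays, as were those of Muc1 at 0.81 (SE 0.49, adjusted p = 0.399). Such separation was seen in 2 of the 7 genes and in 34.1% of all genes at this stage. Without the 3 arrays of low correlation, none of which is a virgin array, the Ltf difference of 1.90 passed (adjusted p = 0.0108), where 2564 of all genes were called, against 4 with all arrays. The median correlation of the virgin arrays with the rest was 0.907 to 0.920 in wild type and 0.953 to 0.964 in mutants. The part of that gap in the genotype differences was not tested. The luminal marker mean of the virgins was also separated, at 8.85 to 9.57 in wild type and 9.68 to 10.02 in mutants, and its part in the result was not tested.

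At dp12 the largest difference was that of Wap, 1.25 (SE 0.58, 95% interval 0.03 to 2.47, adjusted p = 1), with overlapping groups. At dp18 it was that of Wfdc18, -1.08 (SE 0.49, 95% interval -2.09 to -0.06, adjusted p = 1), a group that includes the mutant array with the luminal mean of 7.19. At Lac10 all 7 genes had a lower mean in mutants, with a median difference of -0.96 beside -0.19 over all genes. Lao1 stood at -1.57 (SE 0.83, adjusted p = 0.326), Muc1 at -1.37 (SE 0.49, adjusted p = 0.17), Wfdc18 at -1.09 (SE 0.49, adjusted p = 0.256), Wap at -0.96 (SE 0.58, adjusted p = 0.386) and Lalba at -0.45 (SE 1.03, 95% interval -2.59 to 1.69). Smallest were the differences of Glycam1, -0.31 (SE 0.87, adjusted p = 0.865, limma), and Ltf, -0.05 (SE 0.51, adjusted p = 0.971, limma). The groups did not overlap for Wfdc18 at dp18 and for Glycam1 at Lac10, as was the case for 2.34% and 15.7% of all genes, and none of the 7 was separated at dp12, against 16.9%. The intervals are wide, so a p that misses the threshold does not show that the genotypes were alike. Housekeeping centring moved the median of all genes at Lac10 by 0.47, and the differences of Ltf, Glycam1 and Lalba were then 0.42, 0.16 and 0.02. The mean of the housekeeping list was 8.41 in mutant Lac10 replicate 2, the array of lowest correlation. It was 9.19 to 9.43 in the other Lac10 arrays of both genotypes. How far that shift rests on this array was not tested. The luminal marker mean at Lac10 ran from 8.33 to 9.64 in wild type and from 6.57 to 9.80 in mutants. The mean of 10 white adipocyte markers ran from 6.74 to 7.21 in wild type and was 6.72, 7.68 and 9.35 in mutant replicates 1, 2 and 3. Of these markers 8 were higher in mutants, with a median difference of 1.07, and limma called 0 of them, while 6 had an unadjusted p under 0.05. The part of either marker list in these differences was not tested. Muc1 was called at Lac10 without mutant Lac10 replicate 3 at -1.91 (adjusted p = 0.0243), and Wfdc18 without mutant Lac10 replicate 1 at -1.78 (adjusted p = 0.0408), in fits that called 1388 and 292 of all genes against 36. These were the largest differences among the alternative fits. Other alternatives brought the Muc1 difference as near as -0.54 and turned that of Wfdc18 as far as 0.29.

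**Figure D4:**
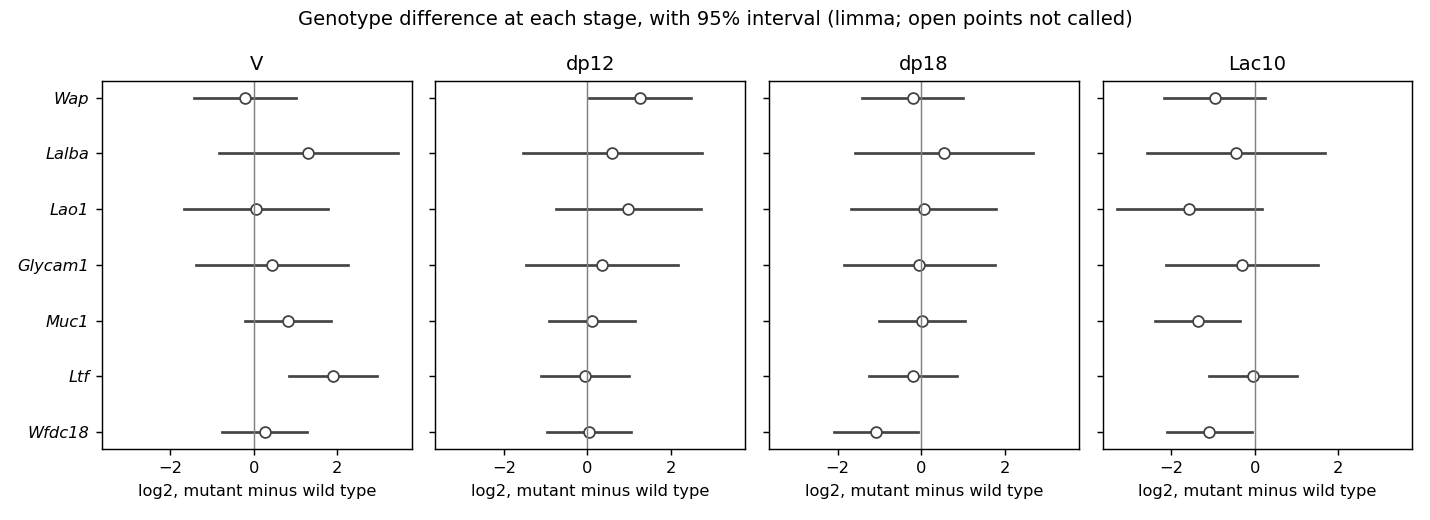
Log2 difference between mutant and wild type for the 7 genes at V, dp12, dp18 and Lac10 (panels), with the 95% interval of the limma fit. No point is filled, since no difference passed, and at Lac10 all 7 points lie below 0.

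Whether the response to stage differed between genotypes was tested directly. The F test for equal genotype differences at all 4 stages called 0 of the 7 genes, beside 0.00656% of all genes, with adjusted p from 0.361 to 0.966 and 2 of the 7, Ltf and Muc1, at an unadjusted p under 0.05 (1892 of all genes). The difference between virgin and Lac10 was lower in mutants than in wild type for all 7 genes, with a median of -1.62. The difference was -2.18 for Muc1 (SE 0.70, adjusted p = 0.0774), -1.95 for Ltf (SE 0.72, adjusted p = 0.0967) and -1.76 for Lalba (SE 1.45, adjusted p = 0.398), beside a median of -0.44 over all genes, of which 0.0197% were called, and none of the 7 passed. So the calls of Lalba, Muc1 and Ltf from virgin to Lac10 in wild type and not in mutants do not show a difference between genotypes.

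Taken over all groups, arrays above their group mean in Wap tended to lie above it in Lao1 and Lalba. This did not hold in each group. In wild-type virgins Wap was 6.21, 5.83 and 6.06 where Lalba was 5.24, 9.49 and 6.34. The correlation of deviations from the group means over the 24 arrays was 0.84 for Wap and Lao1, 0.67 for Wap and Lalba and 0.63 for Lalba and Lao1. Glycam1 did not share this tendency, at -0.17 with Wap and -0.20 with Lalba. Wfdc18 stood at -0.48 with Lalba and -0.30 with Wap, and Ltf at 0.42 with Muc1. These values describe 24 arrays that share the RMA normalization.

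The genes whose levels were most like those of each member over the 24 arrays were found with stage differences included, so r is a description. Next to Wap stood Lao1 (Pearson r = 0.94), Olah, which releases medium-chain fatty acids (0.92), and Pigr, which carries immunoglobulin A into milk (0.92). Next to Lao1 stood Pigr, Wap (both 0.94) and the lipogenic gene Thrsp (0.91). Lalba was nearest to Cel, the bile salt-stimulated lipase of milk (0.89), the lipid droplet gene Cidea (0.85) and the metal transporter gene Slc39a8 (0.83). Glycam1 was nearest to Olah (0.80), the oxytocin receptor gene Oxtr (0.77) and 4933404O12Rik (0.77). Ltf was nearest to the milk fat globule protein gene Mfge8 (0.78), Wfdc3 (0.74) and the acute phase gene Orm1 (0.74), and Muc1 to Lgals12 (0.89), Tbc1d24 (0.89) and Mocs1 (0.88). Wfdc18 was nearest to the epithelial genes Gjb2, which encodes connexin 26 (0.94), Cited4 (0.93) and Ptprf (0.92).

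The partners of these genes moved in part with them. Over all genes 6.01% passed as higher from virgin to Lac10 in wild type, against 0.282% in mutants. In wild type from virgin to Lac10, 2 of 6 genes of lactose synthesis and sugar supply rose: B4galt1, the catalytic partner of alpha-lactalbumin, by 1.79 (adjusted p = 0.00345) and the UDP-galactose carrier gene Slc35a2 by 1.00. In mutants 0 of 6 passed in limma, with B4galt1 at 0.01 (adjusted p = 0.994) and the other 5 lower than in virgins. Of those 5, 3 had an unadjusted p under 0.05, beside 3730 of the 15234 genes tested. The median change of the 6 genes was 0.69 in wild type and -0.59 in mutants. Of 14 genes of prolactin signalling and alveolar fate, 6 rose in wild type, among them Elf5 by 2.21, Stat5a by 1.59, the Stat5 target Cish by 1.31 and the glucocorticoid receptor gene Nr3c1 by 1.18, and 0 of 14 passed in mutants, 4 of them at an unadjusted p under 0.05. Their medians were 0.82 and -0.53, beside 0.15 and -0.18 over all genes, and in mutants 12 of the 14 lay lower at Lac10 than in virgins. The difference between the genotypes in this step was -1.78 for B4galt1 (adjusted p = 0.0636), and 0 of the 14 prolactin genes passed that test in limma, 8 of them at an unadjusted p under 0.05 beside 4688 of all genes. Compared between genotypes at Lac10 alone, 1 of the 14 was called as lower in mutants by limma, where 0.236% of all genes were called. Of the 14, 13 had a lower mean in mutants, and 9 had an unadjusted p under 0.05 beside 2676 of all genes. From virgin to Lac10 the 11 luminal markers had a median change of -0.75 in wild type and -1.88 in mutants, and their part in the list values was not tested. At dp12 Elf5 rose in both genotypes, by 1.86 (adjusted p = 0.0268) and 1.75 (adjusted p = 0.0331), and Nfib rose by 1.06 in wild type.

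Among other secreted milk proteins 4 of 13 rose and 1 fell in wild type at Lac10. Pigr rose by 4.41, Cel by 4.33, the lactoperoxidase gene Lpo by 3.13 and Mfge8 by 0.82. Wfdc2, which encodes a secreted protein of the WFDC family and is in both lists, fell by 1.36. In mutants Pigr rose by 2.85 and Cel by 2.64, and Wfdc2 fell by 1.53. In this step 6.01% of all genes passed as higher and 1.23% as lower in wild type, and 0.282% and 2.59% in mutants. At dp12 these shares were 5.91% and 0.538% in wild type and 3.02% and 1.42% in mutants. Compared between genotypes at Lac10 alone, 1 of the 13 was called as lower in mutants by limma, beside 0.236% of all genes. There 10 of the 13 had a lower mean in mutants and 3 a higher one. Of 8 tested WFDC genes outside the members, Wfdc12 rose at dp12 in both genotypes, by 2.03 and 1.87, Wfdc2 fell at dp12 in both, with changes of -1.29 and -1.73, and Wfdc3 rose at Lac10 in wild type by 1.94. Of 3 tested cell surface mucins beside Muc1, Muc15 rose in wild type by 2.58 at dp12 and 2.44 at Lac10, whereas Muc13 fell in all 4 comparisons, with changes of -1.30 and -1.55 in wild type and of -1.46 and -1.08 in mutants.

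Caseins, the other major milk proteins, rose in 3 of 5 genes from virgin to Lac10 in each genotype, led by Csn1s2b at 5.90 in wild type and 6.31 in mutants. Over all genes in this step 6.01% passed as higher and 1.23% as lower in wild type, and 0.282% and 2.59% in mutants. Milk fat globule genes rose in 4 of 7 cases in wild type, with Cidea at 4.36 and Btn1a1 at 4.34, and in 1 of 7 in mutants, Cd36 at 1.44. In mutants all 10 white adipocyte markers were also higher at Lac10 than in virgins, with a median change of 1.11. In wild type 5 of them were higher and 5 lower. The part of adipocytes in the Cd36 value was not tested. Genes around Spp1 and Pthlh, which were not analysed here, were measured. Of 9 genes of the calcium axis on which parathyroid hormone-related protein acts, 5 rose in wild type, among them the phosphate transporter gene Slc34a2 by 5.81, the Golgi calcium pump gene Atp2c2 by 4.28, the plasma membrane pump gene Atp2b2 by 3.23 and Atp2c1 by 1.71. In mutants Slc34a2 alone of the 9 rose, by 3.66. The difference between the genotypes in this step passed for 0 of the 9 in limma, 4 of them at an unadjusted p under 0.05 beside 4688 of all genes. Of 7 genes of osteopontin receptors 0 passed in wild type at Lac10 in limma, 1 at an unadjusted p under 0.05 beside 3739 of all genes, and in mutants Cd44 fell by 2.11 and Itgav fell by 1.99. Of 13 involution genes 0 passed at Lac10 in either genotype by limma, with 5 and 6 of them at an unadjusted p under 0.05 beside 3739 and 3730 of all genes. The largest differences were those of the protease gene Mmp3, at -1.59 (adjusted p = 0.137) and -1.52 (adjusted p = 0.163).

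The list counts moved with single arrays, as did those over all genes. Without wild-type Lac10 replicate 2, the calls from virgin to Lac10 in wild type went from 6 to 2 among the prolactin genes and from 5 to 2 among the calcium genes, while over all genes they went from 1103 to 312. Without mutant Lac10 replicate 1, 9 of the 13 involution genes, 3 of the 14 prolactin genes, 2 of the 6 lactose genes and 4 of the 7 osteopontin receptor genes were called in mutants, in either direction, and 1795 of all genes against 438. Without mutant Lac10 replicate 2, 0 of the osteopontin receptor genes, 1 of the 5 caseins and 74 of all genes were called there.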

How the data were processed

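The 24 single-colour expression arrays, 12 wild type and 12 mutant, fall into 8 groups of 3. The deposited values are log2 expression values per probe set made by the authors with RMA, per the submitters' processing notes. The array design's build, the background settings and any probe masking are not given in the sources used here. Of 41345 probe sets, 23521 had 1 gene symbol in the platform annotation, 1814 had several and 16010 had none. Each gene was represented by its single-symbol probe set of highest mean over 24 arrays, and genes above the array's own median in 3 or more arrays were tested.

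All 24 arrays were fitted with 1 mean per group in limma 3.58.1 (R 4.3.3), with Benjamini-Hochberg adjustment over 15234 genes and a threshold of 0.05. The fit had 16 residual and 4.35 prior degrees of freedom, and the number of arrays limits its precision (median SE 0.30 for a contrast). The script was tested on simulated data. Replicate numbers come from the titles in wild type, while those of mutants only follow accession order, so the fit has no pairing.

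Named in the text are all members, the 3 genes likest to each by Pearson r, and up to 4 called genes of each list. The members and lists were chosen with earlier results of these data known. Alternatives were the probe set rule, the filter, 2 scalings, a variance trend, array weights, the groups fitted, a replicate block and leaving out arrays.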

Additional observations from a re-analysis of the deposited data

How the results depend on the processing

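No call of a member turned its direction under any alternative. The 6 calls in wild type from virgin to Lac10 were made in each leave-one-out fit, and 5 with only the groups compared, where Glycam1 missed the threshold (adjusted p = 0.0564). From virgin to dp12 in wild type the number of the 7 genes called, 3, became 0 with housekeeping centring and 6 with array weights, and it ran from 0 to 3 when 1 array was left out. Over all genes the number called there, 983, became 160 and 9731, and it ran from 0 to 911 when 1 array was left out. In mutants the 3 calls at dp12 became 5 with array weights and 6 with only the groups compared in the fit, and ran from 1 to 3 when 1 array was left out. The 3 calls in mutants at Lac10 became 1 with only the groups compared and ran from 1 to 5 when 1 array was left out. Array weights also gave 3 calls from dp12 to dp18 and 1 from dp18 to Lac10 in wild type, 2 between genotypes in virgins, 1 at Lac10 and 3 in the test of genotype by stage, each against 0. With these weights 2751, 3898, 5573 and 3306 of all 15234 genes were called in the first 4 of these comparisons. Without the arrays of low correlation 1 of the 7 genes and 2564 of all genes differed between genotypes in virgins, against 0 and 4. Between genotypes at Lac10 the number ran from 0 to 1 when 1 array was left out, and that over all genes from 0 to 1388. The cause of these changes was not tested.

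With a replicate block from the wild-type numbers, 2 genes were called in wild type at dp12, where Lao1 missed the threshold (adjusted p = 0.0552), and 6 at Lac10. Mutant counts stayed at 3 and 3, but the block has no term for mutant arrays. Their changes could not move, so these counts do not test a replicate effect in mutants. Over 18 same-number pairs the correlation of deviations ran from -0.39 to 0.31 and exceeded 0.1 in 4, so the numbers were not taken as pairs. Without the arrays labelled wild-type Lac10 replicate 1 and mutant dp18 replicate 2, the counts were 2 and 6 in wild type and 3 and 2 in mutants at dp12 and Lac10. Over all members and contrasts 1191 alternative values kept direction and side of the threshold, 47 lost a call, 27 gained one and 79 changed sign without a call.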
